A study of Homo sapiens with 6 samples.

Results

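Kinesins are motor proteins that burn ATP to move along microtubules or to take microtubule ends apart. Transport kinesins carry vesicles, organelles and RNA, mostly outward from the cell centre. Mitotic kinesins build the spindle, align the chromosomes and complete cytokinesis, and many of their genes are transcribed mainly in the G2 and M phases of the cell cycle. The kinesin genes described here are 32 of the 60483 genes in the count tables. They were listed by name and role, and each was found under a single Ensembl ID. By known role, 12 are mitotic motors, 11 are transport motors and 9 act at cilia, on microtubule ends or in signalling.

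The cells were DLD-1, an established human colorectal adenocarcinoma line, in 2 groups of 3 libraries each. The first group received a control siRNA and the second an siRNA against AHR, the aryl hydrocarbon receptor, which binds dioxins and indoles and acts on transcription. The labels give no other treatment, no ligand of the receptor and no time after transfection, and nothing says that the libraries came from separate cultures, so p-values reflect only how far these libraries vary, a spread that may be technical. Library totals ran from 11567736 to 15037145 counts, and the AHR siRNA group had the 3 lowest. Levels are given as CPM, counts scaled to a fixed library size after TMM normalisation (trimmed mean of M values, which evens out differences in RNA composition). AHR itself was measured at 117, 144 and 132 CPM after control siRNA, against 95.8, 87.4 and 95 CPM after its own siRNA, a fall to 70.8% (-0.50 on the log2 scale, edgeR adjusted p = 1.98e-05). Control siRNA replicate 1 stood apart from the rest of its group. Counts of control replicates 2 and 3 differed by a chi-square of 1.54 per degree of freedom over genes, against 8.80 and 7.63 between either of them and replicate 1. Of 10 markers of colorectal epithelium, 9 passed the filter on low counts, among them EPCAM, CDH1, KRT8 and CDX2, while LGALS4 was near the floor and CDX1 was below the filter. Summed markers of fibroblasts, leukocytes and endothelium lay at 2.13 to 3.31, 2.28 to 4.35 and 4.97 to 6.98 CPM per library.

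Many genes of the G2 and M phases have promoters with a CHR, a cell-cycle element, beside boxes bound by the factor NF-Y, so promoter stretches are shown here. RefSeq promoter windows on GRCh38.p14, from 250 bases before to 50 bases after each annotated start, were present for 26 of the 32 genes, in 32 windows. The 3 motifs were searched on either strand, and no matches of different motifs overlapped in the kinesin windows: TTTGAA, the CHR core, CCAAT, the NF-Y box, and GCGTG, the core recognised by AHR with its partner ARNT. Stretches from 80 bases before to 20 bases after the start are printed for 6 of the 8 mitotic motors that hold both the CHR core and the NF-Y box, and for the transport motor KIF1C, which holds neither in its window. They run 5′ to 3′ on the strand of the gene, and capitals mark TTTGAA and CCAAT or their reverse complements.

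KIF4A, chrX:70290024-70290123, plus strand: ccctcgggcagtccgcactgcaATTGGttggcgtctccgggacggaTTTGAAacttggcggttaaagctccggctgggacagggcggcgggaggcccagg
KIF11, chr10:92593050-92593149, plus strand: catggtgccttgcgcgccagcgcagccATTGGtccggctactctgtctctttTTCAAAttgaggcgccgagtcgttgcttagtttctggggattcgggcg
KIF14, chr1:200620732-200620831, minus strand: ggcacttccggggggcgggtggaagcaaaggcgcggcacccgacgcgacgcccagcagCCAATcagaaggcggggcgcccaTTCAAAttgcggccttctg
KIF18B, chr17:44947754-44947853, minus strand: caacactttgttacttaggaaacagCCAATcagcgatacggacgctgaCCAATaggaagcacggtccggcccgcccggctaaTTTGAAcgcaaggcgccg
KIF23, chr15:69414269-69414368, plus strand: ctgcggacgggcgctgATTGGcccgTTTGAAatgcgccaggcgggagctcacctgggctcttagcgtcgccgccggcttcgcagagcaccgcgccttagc
KIFC1, chr6:33391743-33391842, plus strand: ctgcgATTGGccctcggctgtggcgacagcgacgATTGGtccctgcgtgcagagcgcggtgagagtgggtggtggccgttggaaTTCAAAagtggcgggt
KIF1C, chr17:4997870-4997969, plus strand: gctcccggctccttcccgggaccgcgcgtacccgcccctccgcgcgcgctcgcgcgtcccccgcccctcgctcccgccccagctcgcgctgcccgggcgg

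The CHR core was found in 9 of 13 windows of mitotic motors (69.2%), in 1 of 11 windows of transport motors (9.09%) and in 0 of 8 windows of the remaining kinesins, against 15.2% of all 35116 windows. The 9 windows belong to KIF4A, KIF11, KIF14, KIF15, KIF18A, KIF18B, KIF20B, KIF23 and KIFC1, and the window of a transport motor is that of KIF5B, with its match 140 bases before the start. Within 50 bases of the start on either side, the core was in 8 windows of mitotic motors (61.5%) and in no window of the other kinesins, against 4.62% of all windows. Distances were taken from the first base of the nearest NF-Y box upstream to the first base of the CHR core, box included. They were 25, 23 and 24 bases in KIF11, KIF14 and KIF4A. In KIF18A and KIF18B they were 35 and 34 bases, and in KIF23 and KIFC1 9 and 50 bases. In KIF20B the distance was 122 bases. The NF-Y box was in 10 of the 13 mitotic windows (76.9%) and 5 of the 11 transport windows (45.5%), against 34.6% of all windows. The AHR core was in 8 mitotic windows (61.5%) and 4 transport windows (36.4%), against 36.5% of all. KIF2C, KIF20A and KIF22 had no CHR core in these letters, which says only that these letters are not in the windows. A match is a run of letters and no measure of binding.

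**Figure D1:**
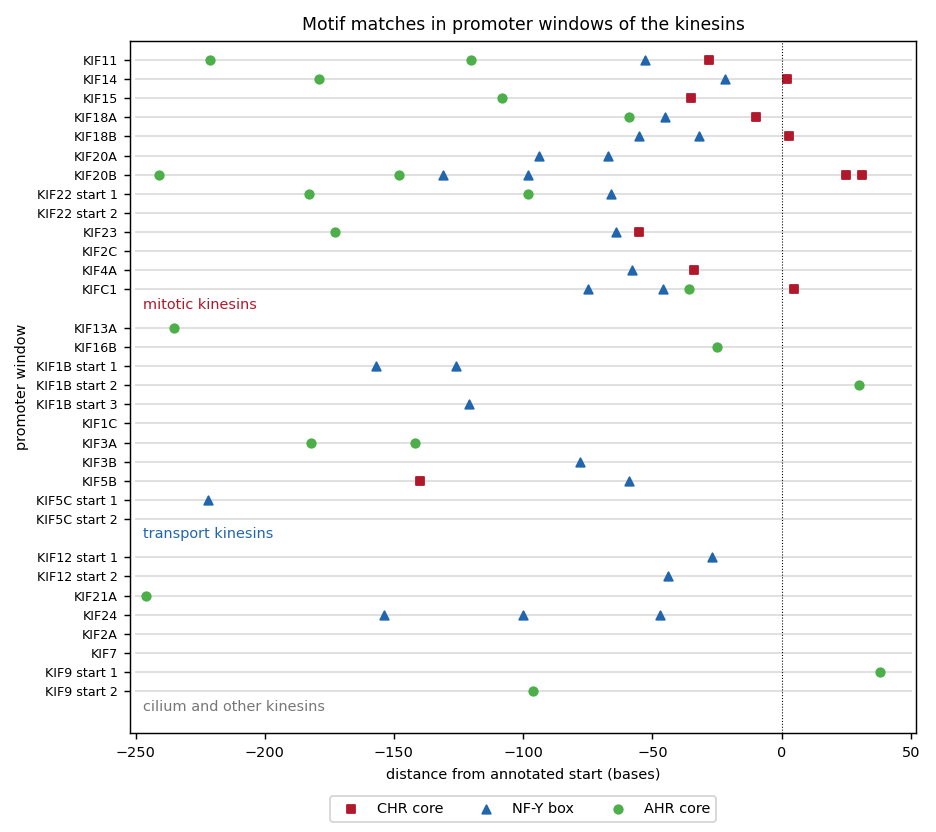
Positions of the CHR core (squares), the NF-Y box (triangles) and the AHR core (circles) in the promoter windows of 26 kinesin genes, in bases from the annotated start, with 1 line per window. Squares lie near the start in 8 windows of mitotic motors, and the square of a transport motor, in KIF5B, lies 140 bases before it.

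The comparison asks which transcripts differ between AHR siRNA and control siRNA cells, here among the kinesins. Whether a difference came through AHR or through another effect of the siRNA was not tested. Calls were made at an adjusted p under 0.05 in edgeR's quasi-likelihood test, with adjustment over all 14900 tested genes. Of the 32 kinesins, 30 passed the filter on low counts, and 26 of these were called, 19 lower and 7 higher in AHR siRNA cells. Over all tested genes 60.1% were called, 30.1% lower and 30.0% higher, so a call in either direction was common. How many of all tested genes had groups without overlap was not counted. Lack of overlap, given below for single genes, may therefore be common too. All 12 mitotic motors were called lower, and none was higher. Their log2 fold changes ran from -2.01 to -0.95 with a median of -1.28, or 41.2% of control, beside a median of 0.01 and a middle range of -0.36 to 0.43 (the quartiles) over all tested genes. These counts depend on how roles were assigned. KIF2A also acts at spindle poles but was listed with the other roles. Its log2 fold change was -0.26, or -0.11 and not called with library totals alone. The 10 tested transport motors divided into 4 lower, 5 higher and 1 without a call, and their median was 0.18 (0.33 with library totals alone in place of TMM). Of the 8 tested kinesins of cilia and other roles, 3 were lower, 2 were higher and 3 were not called, with a median of -0.14. With library totals alone none of these was lower and their median was 0.01, and the median was -0.03 without AHR siRNA replicate 2 and -0.05 without control siRNA replicate 2. The cells were measured in bulk, so fewer cells in division and less of these transcripts per dividing cell cannot be told apart.

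**Figure D2:**
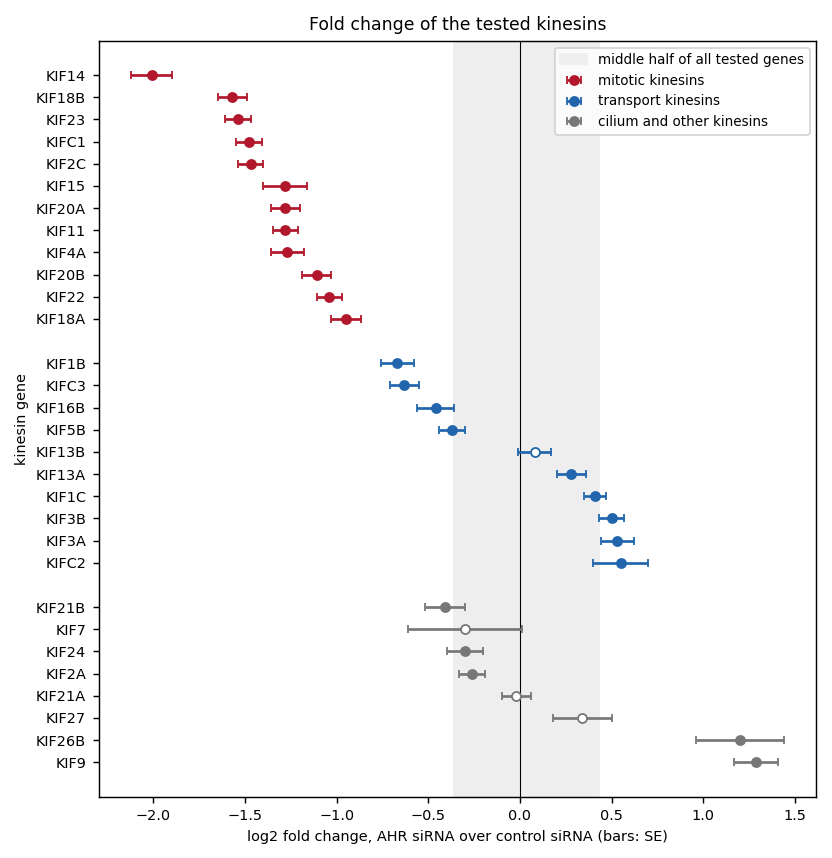
Log2 fold change of the 30 tested kinesins, AHR siRNA over control siRNA, with the SE as bars. Filled points are called at an edgeR adjusted p under 0.05, open points are not, and the grey band runs from -0.36 to 0.43, the quartiles of all tested genes. The 12 mitotic motors lie between -2.01 and -0.95, left of every other kinesin shown, KIF2A of the spindle poles among them.

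The summed level shows the same split. The 12 mitotic motors summed to 1282, 1284 and 1281 CPM in the control siRNA libraries and to 516, 481 and 523 CPM in the AHR siRNA libraries. The 11 transport motors summed to 830, 928 and 951 CPM in control and to 864, 866 and 925 CPM in AHR siRNA libraries, and these ranges overlapped. The 9 remaining kinesins summed to 208, 221 and 218 CPM and to 207, 192 and 213 CPM, also with overlap. The mitotic motors made up 53.4% ± 1.6 of all kinesin CPM in control and 31.8% ± 0.7 in AHR siRNA libraries (SD, n = 3 each). Per kilobase of annotated exon, which allows a rough comparison of levels between genes, their share was 64.9% ± 1.4 and 42.4% ± 0.6 (SD, n = 3 each). That length joins the exons of all annotated transcripts of a gene, so genes with many unused exons come out too low.

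**Figure D3:**
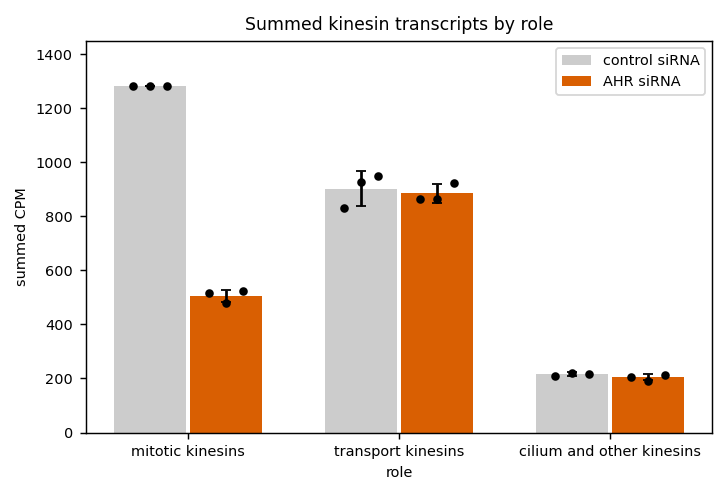
Summed CPM of the kinesins of each role. Bars are means of 3 libraries, error bars are SD and points are single libraries. The mitotic motors stand at 1281 to 1284 CPM in control and at 481 to 523 CPM in AHR siRNA libraries, while the other roles overlap between the groups.

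The order of levels per kilobase of exon differed between the groups. In control libraries KIF5B was the most abundant kinesin at 48.4 ± 3.3 CPM per kilobase, followed by KIF2C at 40.2 ± 1.7, KIFC1 at 35.7 ± 0.8, KIF20A at 33.8 ± 1.9, KIF11 at 33.8 ± 1.0, KIF18B at 32 ± 2.4 and KIF22 at 30.5 ± 2.2 (SD, n = 3 each). KIFC1 and KIF20A overlapped in their ranges, as did KIF20A, KIF11, KIF18B and KIF22 with their neighbours. Of the 8 most abundant kinesins 7 were mitotic motors. In AHR siRNA libraries KIF5B stayed at the top with 37.5 ± 3.1, followed by KIF1C at 26.7 ± 1.0, KIF3B at 19.4 ± 0.2 and KIF2A at 16.1 ± 1.3 CPM per kilobase (SD, n = 3 each). KIF2A overlapped with the next genes in the order, KIF22 at 14.8 ± 0.5 and KIF2C at 14.5 ± 1.0, and 4 of the 8 most abundant kinesins were mitotic motors.

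Some mitotic motors set up the bipolar spindle and the attachment of chromosomes to it. KIF11 is the plus-end motor that slides microtubules apart and separates the spindle poles. It stood at 161, 170 and 163 CPM in the control siRNA libraries and at 72.8, 62 and 68.6 CPM in the AHR siRNA libraries (log2 fold change -1.28, SE 0.07, edgeR adjusted p = 3.02e-11). KIF15, which can hold the poles apart when KIF11 is blocked, was less abundant and stood at 24, 25.7 and 28.5 CPM in the control siRNA libraries and at 11.6, 8.97 and 11.7 CPM in the AHR siRNA libraries (log2 fold change -1.28, SE 0.12, edgeR adjusted p = 1.63e-08). KIFC1 is a minus-end motor that pulls inward and gathers extra centrosomes. It stood at 116, 121 and 120 CPM in the control siRNA libraries and at 43.1, 41.3 and 44 CPM in the AHR siRNA libraries (log2 fold change -1.48, SE 0.07, edgeR adjusted p = 3.14e-12). The libraries of the groups did not overlap for any of these genes. KIF2C, or MCAK, takes microtubule ends apart at centromeres and so releases wrong attachments. It stood at 153, 146 and 140 CPM in the control siRNA libraries and at 53.7, 48.8 and 55.9 CPM in the AHR siRNA libraries (log2 fold change -1.47, SE 0.07, edgeR adjusted p = 6.2e-12).

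Motors of chromosome alignment fell by different amounts. KIF18A, which dampens the movements of chromosomes at the metaphase plate, had the smallest fall of the mitotic motors and stood at 46.1, 45.7 and 45.3 CPM in the control siRNA libraries and at 24.4, 23 and 23.4 CPM in the AHR siRNA libraries (log2 fold change -0.95, SE 0.08, edgeR adjusted p = 5.19e-09). KIF18B, its relative that shortens astral microtubules, stood at 136, 154 and 157 CPM in the control siRNA libraries and at 45.8, 52 and 52.6 CPM in the AHR siRNA libraries (log2 fold change -1.57, SE 0.08, edgeR adjusted p = 7.12e-12). The chromokinesins KIF4A and KIF22 bind chromosome arms and push them toward the spindle middle. KIF4A stood at 66.3, 69.3 and 63.1 CPM in the control siRNA libraries and at 30.9, 24.9 and 26.6 CPM in the AHR siRNA libraries (log2 fold change -1.27, SE 0.09, edgeR adjusted p = 3.15e-10). KIF22 stood at 142, 125 and 128 CPM in the control siRNA libraries and at 62.1, 66.1 and 63.3 CPM in the AHR siRNA libraries (log2 fold change -1.04, SE 0.07, edgeR adjusted p = 4.07e-10). All 3 AHR siRNA libraries were below all 3 control libraries for each of the 4 genes. KIF4A has a near-identical copy, KIF4B, which had 5 counts over all libraries, and how reads common to both were counted is not stated in the labels.

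Motors of the central spindle and of cytokinesis included the largest fall of any member. KIF14, which holds citron kinase and PRC1 at the midbody, stood at 29.4, 35.7 and 34.2 CPM in the control siRNA libraries and at 8.53, 8.09 and 8 CPM in the AHR siRNA libraries (log2 fold change -2.01, SE 0.11, edgeR adjusted p = 1.68e-11), and so retained 24.8% of its control level. KIF23 forms the centralspindlin complex with RACGAP1 and bundles midzone microtubules. It stood at 169, 157 and 163 CPM in the control siRNA libraries and at 57.5, 53.7 and 57.4 CPM in the AHR siRNA libraries (log2 fold change -1.54, SE 0.07, edgeR adjusted p = 1.54e-12), the smallest p of the members. KIF20A carries Aurora B and its complex to the midzone and stood at 141, 126 and 135 CPM in the control siRNA libraries and at 56.3, 49.7 and 59.3 CPM in the AHR siRNA libraries (log2 fold change -1.28, SE 0.08, edgeR adjusted p = 7.22e-11). KIF20B, which acts late in abscission, stood at 98.5, 108 and 104 CPM in the control siRNA libraries and at 49.4, 42.6 and 52.2 CPM in the AHR siRNA libraries (log2 fold change -1.11, SE 0.08, edgeR adjusted p = 7.83e-10). For these genes too the libraries of the groups did not overlap.

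The partners of mitotic motors moved in the same direction with 1 exception. Of 17 listed partner genes 16 were called lower (94.1%) and 1 higher (5.88%), beside 30.1% lower and 30.0% higher over all tested genes. Their median log2 fold change was -1.23, against -1.28 for the motors. PLK1, a kinase that phosphorylates several midzone motors, fell from 193 ± 8.33 to 63.2 ± 1.62 CPM (SD, n = 3 each; log2 fold change -1.61, SE 0.07, edgeR adjusted p = 7.7e-13). RACGAP1, the centralspindlin partner of KIF23, fell from 128 ± 3.1 to 51.7 ± 1.76 CPM (SD, n = 3 each). TPX2, which targets KIF11 and KIF15 to spindle microtubules, fell from 313 ± 5.55 to 131 ± 6.67 CPM, and PRC1, the bundling protein that binds KIF4A, fell from 131 ± 7.24 to 51.7 ± 2.37 CPM (SD, n = 3 each). NUMA1, which anchors dynein at spindle poles and lies in the nucleus through interphase, rose from 154 ± 6.58 to 206 ± 13.9 CPM (SD, n = 3 each; log2 fold change 0.42, SE 0.07, edgeR adjusted p = 3.66e-05). Of 12 kinesin genes outside the 32, 6 were tested, of which 3 were lower (50%) and 1 was higher (16.7%). CENPE, the kinesin of the kinetochore, fell from 56.8 ± 5.44 to 21 ± 1.02 CPM (SD, n = 3 each; log2 fold change -1.44, SE 0.09, edgeR adjusted p = 1.04e-10). The other called genes were KIF26A, which fell to 54.8% of control, and the kinesin-2 genes KIF17 and KIF3C.

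**Figure D4:**
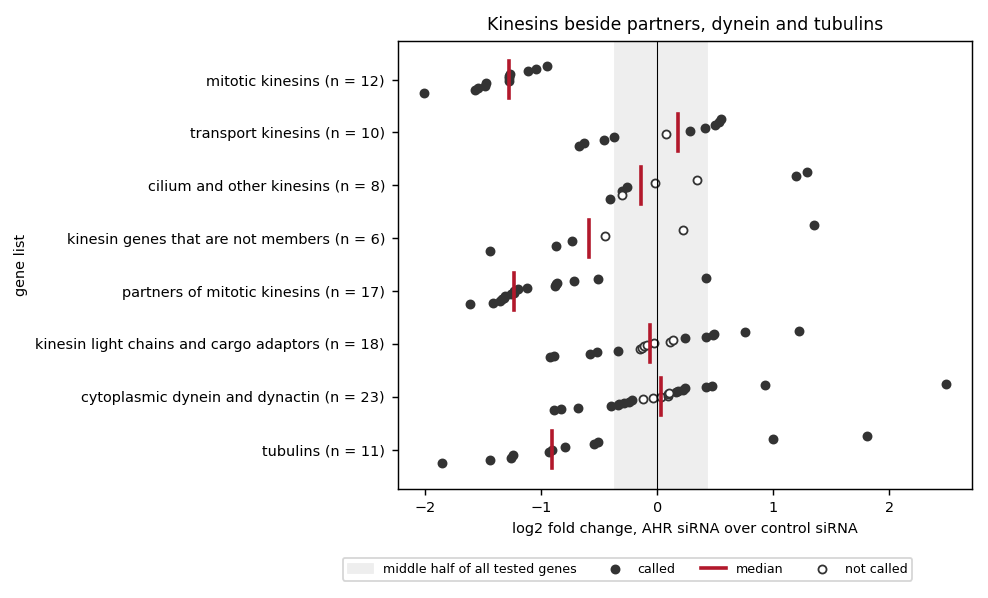
Log2 fold change, AHR siRNA over control siRNA, of the tested genes of each list, with filled points for called genes, open points for the others and a red line at the median. The grey band runs from -0.36 to 0.43, the quartiles of all tested genes. The medians of the mitotic motors (-1.28) and of their partners (-1.23) lie left of the band, and that of the transport motors (0.18) lies inside it.

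**Figure D5:**
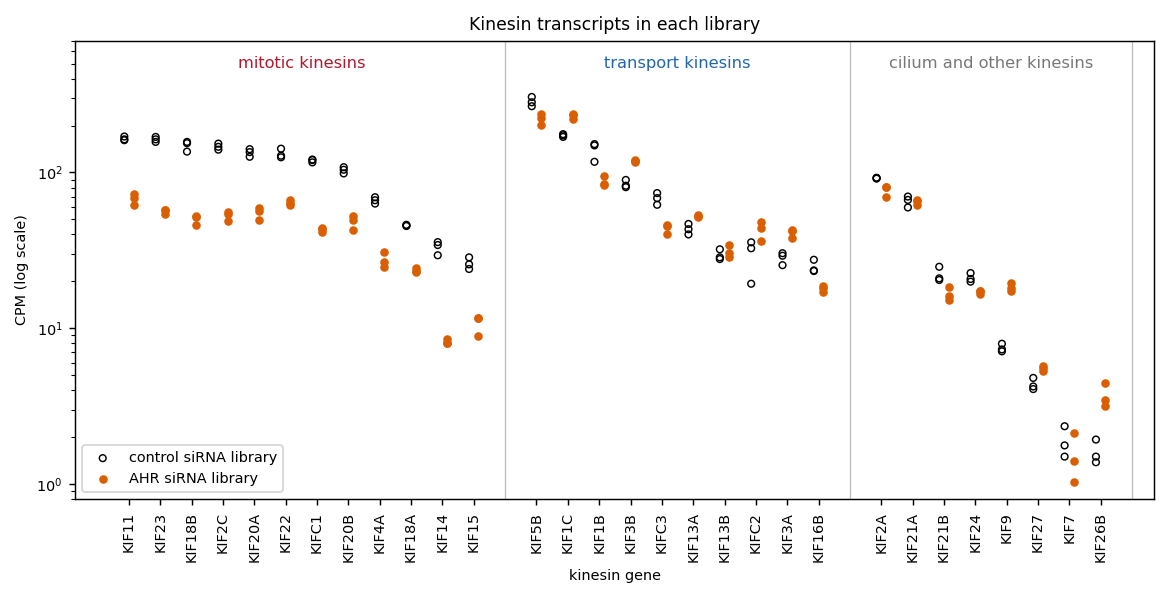
CPM of the 30 tested kinesins in each library on a log scale, with control siRNA libraries as open circles and AHR siRNA libraries as filled circles, ordered within a role by the control mean. The groups are apart for every kinesin shown except KIF13B, KIF7 and KIF21A, and so also for KIF27, which was not called. How many of all tested genes have groups apart was not counted, so this may be common. Transport motors go in both directions.

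Transport motors are described by family. Kinesin-1 is the conventional motor of organelles, made of heavy chains and cargo-binding light chains. Its ubiquitous heavy chain gene KIF5B stood at 266, 282 and 305 CPM in the control siRNA libraries and at 225, 201 and 236 CPM in the AHR siRNA libraries (log2 fold change -0.37, SE 0.07, edgeR adjusted p = 0.000292), a fall in which the groups did not overlap. The fall was -0.22 with library totals alone in place of TMM (edgeR adjusted p = 0.0200). KIF5C, the heavy chain of neurons, had 0, 1 and 0 counts in control and 0, 4 and 0 counts in AHR siRNA libraries and was not tested. Of the light chains, KLC1 and KLC2 were not called, at log2 fold changes of -0.15 and -0.13, KLC3 fell to 52.7% of control and KLC4 rose to 233%, from 13.1 ± 0.744 to 30.5 ± 1.62 CPM (SD, n = 3 each).

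Kinesin-2, which moves cargo into cilia and carries endosomes and melanosomes, has KIF3 motors, which rose, and a separate motor, KIF17. KIF17, not among the 32 genes, fell from 3.68 ± 0.787 to 2.22 ± 0.0942 CPM (SD, n = 3 each; log2 fold change -0.73, SE 0.22, edgeR adjusted p = 0.00844). KIF3A stood at 25.4, 30.3 and 29.2 CPM in the control siRNA libraries and at 41.8, 37.7 and 42.7 CPM in the AHR siRNA libraries (log2 fold change 0.53, SE 0.09, edgeR adjusted p = 4.22e-05). Its usual partner KIF3B stood at 80.4, 82.1 and 89.5 CPM in the control siRNA libraries and at 118, 117 and 120 CPM in the AHR siRNA libraries (log2 fold change 0.50, SE 0.07, edgeR adjusted p = 3.71e-06). The groups did not overlap for either gene. The cargo-binding subunit KIFAP3 rose from 5.9 ± 1.44 to 8.31 ± 0.318 CPM (SD, n = 3 each; log2 fold change 0.48, SE 0.16, edgeR adjusted p = 0.0165). KIF3C, the alternative partner of KIF3A and not among the 32 genes, rose from 16.4 ± 1.69 to 41.9 ± 1.33 CPM (SD, n = 3 each; log2 fold change 1.35, SE 0.09, edgeR adjusted p = 3.19e-10).

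Kinesin-3 motors of vesicles and endosomes went in both directions. KIF1B, a carrier of mitochondria and synaptic vesicle precursors, stood at 117, 149 and 152 CPM in the control siRNA libraries and at 84.1, 82.8 and 95.1 CPM in the AHR siRNA libraries (log2 fold change -0.67, SE 0.09, edgeR adjusted p = 3.08e-06). Its close relative KIF1C, which carries dense-core vesicles and integrins, stood at 169, 173 and 176 CPM in the control siRNA libraries and at 220, 237 and 232 CPM in the AHR siRNA libraries (log2 fold change 0.41, SE 0.06, edgeR adjusted p = 1.82e-05). KIF1B was therefore lower and KIF1C higher in all 3 AHR siRNA libraries than in any control library. KIF13A, a motor of recycling endosomes, stood at 40, 43.2 and 46.7 CPM in the control siRNA libraries and at 52.7, 51.8 and 53.4 CPM in the AHR siRNA libraries (log2 fold change 0.28, SE 0.08, edgeR adjusted p = 0.00397), or 0.43 with library totals alone. KIF16B, which moves early endosomes outward, stood at 23.3, 27.5 and 23.5 CPM in the control siRNA libraries and at 17.1, 18.2 and 18.8 CPM in the AHR siRNA libraries (log2 fold change -0.46, SE 0.10, edgeR adjusted p = 0.00051). KIF13B, which binds the scaffold DLG1, stood at 27.8, 32.1 and 28.5 CPM in the control siRNA libraries and at 28.7, 30.4 and 34.2 CPM in the AHR siRNA libraries. Its groups overlapped and it was not called (log2 fold change 0.08, SE 0.09, edgeR adjusted p = 0.477).

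Of the minus-end motors of kinesin-14 outside mitosis, KIFC3 and KIFC2 moved in opposite directions. KIFC3, a motor of apical transport and of cell junctions in epithelia, stood at 62, 73.7 and 68.4 CPM in the control siRNA libraries and at 40.2, 46.2 and 45.6 CPM in the AHR siRNA libraries (log2 fold change -0.63, SE 0.08, edgeR adjusted p = 2.35e-06). KIFC2, known mainly from neurons, stood at 19.3, 35.6 and 32.6 CPM in the control siRNA libraries and at 36.2, 44 and 47.8 CPM in the AHR siRNA libraries (log2 fold change 0.55, SE 0.15, edgeR adjusted p = 0.00407). The control range of KIFC2 rested on replicate 1, the low value. Without that library the log2 fold change was 0.32 (edgeR adjusted p = 0.00193), and with DESeq2 on all libraries it was 0.54 and not called (adjusted p = 0.0982). KIFC2 shares 17.8% of its exon bases with FOXH1 on the opposite strand, whose counts were low at a mean of 0.482 and 1.30 CPM, and the labels do not say whether counting used the strand. Summed neuronal markers also differed between the groups, at 10.2 to 12.6 CPM in control and 18.8 to 21.0 CPM in AHR siRNA libraries, through MAP2 and TUBB3, while SNAP25 was at 0 counts in every library. Their part in the values of neuronal motors was not tested.

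Cargo adaptors link the motors to their loads. Of 18 tested light chains and adaptors, 5 were lower (27.8%), 6 were higher (33.3%) and 7 were not called, with a median of -0.06, shares near the 30.1% and 30.0% of all tested genes. SPAG9, a scaffold that binds kinesin-1, fell to 54% of control, and the mitochondrial adaptor gene TRAK2 to 67%, whereas the other adaptor of that pair, TRAK1, rose to 141%. MAPK8IP3, which links kinesin-1 to vesicles, rose to 169%, and PLEKHM2, which links it to lysosomes, to 134%. KIFBP, which binds and inhibits several motors including KIF15 and KIF18A, fell to 69.7%.

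The kinesins of cilia and other roles held the largest rises of any member. KIF9, a motor of motile cilia and sperm tails, stood at 7.95, 7.11 and 7.31 CPM in the control siRNA libraries and at 19.4, 17.4 and 18.1 CPM in the AHR siRNA libraries (log2 fold change 1.29, SE 0.12, edgeR adjusted p = 1.49e-08), 245% of control with no overlap. KIF9 shares 17.9% of its exon bases with genes on the opposite strand, of which KLHL18 rose by 0.43 and KIF9-AS1 fell by 0.50 on the log2 scale, so its value is uncertain. KIF26B, which has lost motor activity and acts in Wnt5a signalling, stood at 1.5, 1.93 and 1.38 CPM in the control siRNA libraries and at 3.48, 3.16 and 4.48 CPM in the AHR siRNA libraries (log2 fold change 1.20, SE 0.24, edgeR adjusted p = 0.000274), from 18 to 61 counts per library. KIF27, a relative of KIF7 in motile cilia, stood at 4.8, 4.07 and 4.23 CPM in the control siRNA libraries and at 5.3, 5.52 and 5.73 CPM in the AHR siRNA libraries and was not called (log2 fold change 0.34, SE 0.16, edgeR adjusted p = 0.0834), though it passed with library totals alone (0.49, edgeR adjusted p = 0.0145) and with upper-quartile factors (0.42, edgeR adjusted p = 0.0353). KIF7, the ciliary regulator of Hedgehog signalling, stood at 1.5, 2.35 and 1.77 CPM in the control siRNA libraries and at 1.41, 1.03 and 2.13 CPM in the AHR siRNA libraries. The groups overlapped (log2 fold change -0.30, SE 0.31, edgeR adjusted p = 0.414), and with 14 to 34 counts per library such a difference was below what could be detected. Its log2 fold change was -0.08 without AHR siRNA replicate 2, -0.63 without AHR siRNA replicate 3 and -0.10 without control siRNA replicate 2. KIF7 also shares 11.8% of its exon bases with TICRR, a replication gene on the opposite strand that fell by 0.83 on the log2 scale.

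Small falls and 1 near-zero value were found among regulators of microtubule ends. KIF2A, the relative of KIF2C that acts at spindle poles and in neurons, stood at 92.4, 91.3 and 92 CPM in the control siRNA libraries and at 80.4, 69.8 and 80.4 CPM in the AHR siRNA libraries (log2 fold change -0.26, SE 0.07, edgeR adjusted p = 0.00456). It shares 8.97% of its exon bases with IPO11 on the same strand, which was not called (log2 fold change -0.11, edgeR adjusted p = 0.252). KIF24, which removes microtubule ends at centrioles and restrains primary cilia, stood at 19.9, 22.6 and 20.7 CPM in the control siRNA libraries and at 16.5, 17.4 and 17.3 CPM in the AHR siRNA libraries (log2 fold change -0.30, SE 0.10, edgeR adjusted p = 0.0106). KIF21B, which pauses microtubule growth, stood at 20.4, 24.8 and 20.9 CPM in the control siRNA libraries and at 15.1, 16.2 and 18.4 CPM in the AHR siRNA libraries (log2 fold change -0.41, SE 0.11, edgeR adjusted p = 0.00272). The calls of KIF2A (-0.11, edgeR adjusted p = 0.193), KIF24 (-0.16, edgeR adjusted p = 0.174) and KIF21B (-0.27, edgeR adjusted p = 0.0506) ended with library totals alone. KIF24 also lost its call with upper-quartile factors (-0.22, edgeR adjusted p = 0.0518) and without control siRNA replicate 2 (-0.25, edgeR adjusted p = 0.0652). KIF21A, a paralog of KIF21B that blocks growth at the cell cortex, stood at 59.6, 66.6 and 70 CPM in the control siRNA libraries and at 65.5, 61.7 and 66.8 CPM in the AHR siRNA libraries. Its groups overlapped (log2 fold change -0.02, SE 0.08, edgeR adjusted p = 0.866), and its sign changed with the scaling. KIF12, a kinesin of kidney and liver epithelia, had 0 counts in every library, which allows up to 0.207 to 0.248 CPM per library (3 counts, counting error only).

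Ratios within a library do not depend on the scaling, and 4 pairs of members were compared in this way after their values were seen. KIF2C to KIF2A, the mitotic and the general member of kinesin-13, stood at 1.65, 1.60 and 1.53 in control and at 0.667, 0.700 and 0.695 in AHR siRNA libraries. KIF1C to KIF1B stood at 1.45, 1.15 and 1.16 and at 2.61, 2.86 and 2.44. KIF3B to KIF5B stood at 0.302, 0.291 and 0.293 and at 0.525, 0.583 and 0.508. KIFC2 to KIFC1 stood at 0.166, 0.293 and 0.271 and at 0.840, 1.06 and 1.09. The groups were apart in all 4 ratios, with log2 differences of -1.21, 1.07, 0.86 and 2.07. Each gave p = 0.10 in a two-sided exact permutation test, the smallest that 3 against 3 libraries allow. Benjamini-Hochberg adjustment over the 4 pairs left it at 0.10. Groups that are apart always give this p, and the pairs were chosen with their values known, so the test decides nothing.

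A pair of 7-base words, GACTTAA and CACAACA, was picked in an earlier analysis of these same fold changes because genes that hold them in the 3′ UTR were lower more often. In GENCODE 29 transcripts, 44.6% of 2384 tested genes with either word were lower, against 31.3% of 10007 with neither. The shares called higher were 24.5% and 31.7%. The words were picked for this difference, so it is no support for them, and the length of the 3′ UTR was not taken into account. Among mitotic motors KIF14 held GACTTAA and KIF18A held CACAACA, the motors with the largest and the smallest fall, and the other 10 held neither word. Among transport motors KIF3A, which rose, KIF16B, which fell, and KIF5C, which was not tested, held GACTTAA, and none of the 9 remaining kinesins held either word. The part of the words in these values was not tested.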

How the data were processed

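RNA of 6 DLD-1 libraries, 3 per siRNA, was analysed from the counts the authors deposited, 1 whole number per Ensembl gene ID. HTSeq, TopHat and TopHat2 2.0.11 are listed per the submitters' processing notes, and the builds named there are GRCh37 and hg19, without roles. The sources used here do not give the strand setting or the treatment of reads with several positions.

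The members and lists were chosen with earlier results of these data known, so no p is given over a list. Genes were kept by filterByExpr of edgeR 4.0.16 in R 4.3.3 (14900 genes), scaled by TMM and tested with glmQLFTest with the group as the only term, with Benjamini-Hochberg adjustment over all tested genes. TMM gave factors of 0.926 to 0.965 for the control group and 1.05 to 1.06 for the AHR group. The SE is the log2 fold change divided by the square root of F. Exon lengths came from GENCODE 29, matched by gene ID, and promoters from RefSeq, matched by symbol. The fit was also run on simulated counts with 200 changed genes. In the data 8953 genes were called, so that run does not test the fit under so wide a change. The text names each of the 32 members, AHR and, of the other lists, called genes with the smallest p (up to 4 per direction); other genes, such as KLC1, KLC2, KIFAP3, KIF4B, single markers and genes that overlap members, were named after their values were seen. Alternatives used DESeq2 1.42.0 and limma 3.58.1. A planned search of member proteins was not run, since no protein sequences were used here.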

Additional observations from a re-analysis of the deposited data

How the results depend on the processing

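All 12 mitotic motors were called lower in each of the 168 combinations of gene and alternative: DESeq2, upper-quartile or no scaling factors, no filter, at least 1 CPM in 3 libraries, the DESeq2 Wald test, limma-voom, a replicate block and each library left out. They were also all called at an adjusted p under 0.01. Of the 420 combinations for the 30 tested members, 408 kept their direction and their side of the threshold, 6 lost a call, 2 gained a call and 4 changed sign. The 4 sign changes were all in KIF21A, at 0.13 with library totals alone, 0.06 with upper-quartile factors and between -0.08 and 0.03 with each library left out. With library totals alone, which shifts the median of all genes from 0.01 to 0.15, the count of lower kinesins of cilia and other roles went from 3 to 0 and their median to 0.01. The medians of mitotic and transport motors were then -1.13 and 0.33 (transport 0.26 with upper-quartile factors), and the higher share of calls was 64.7% (5878 of 9086), or 58% with upper-quartile factors, against 4474 of 8953 with TMM.

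The labels do not say whether replicate numbers pair the samples, and the libraries did not settle it. Deviations from the group means correlated at 0.233, -0.0479 and 0.183 between libraries of the same number, and not every library correlated best with its own number. With the replicate block 4810 genes were lower and 4788 higher, against 4479 and 4474 without it, and no call of a kinesin changed. With 3 libraries per group, low counts limit KIF7, KIF26B and KIF27, and KIF5C and KIF12 could not be tested.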

Other observations

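The tracks of the kinesins and the opposing motor were measured in the same libraries. Of 11 tested tubulin genes 9 were lower (81.8%) and 2 higher (18.2%), beside 30.1% lower and 30.0% higher over all tested genes. Their median log2 fold change was -0.91. TUBB6, a beta-tubulin, fell from 198 ± 9.2 to 54.7 ± 1.19 CPM, TUBA1B, a widely expressed alpha-tubulin, from 845 ± 30.8 to 354 ± 5.18 CPM, TUBB4B from 1709 ± 114 to 723 ± 12.8 CPM and TUBA4A from 309 ± 21.7 to 163 ± 10.7 CPM (SD, n = 3 each). TUBA1A and TUBB3, best known from neurons, rose from 4.48 ± 0.0874 to 15.8 ± 1.24 CPM and from 3.4 ± 0.254 to 6.8 ± 0.99 CPM (SD, n = 3 each). Reads can be shared between tubulin genes of nearly the same sequence, which makes each single value uncertain.

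Cytoplasmic dynein, the motor that moves cargo toward the cell centre, and its activator dynactin were called in both directions. Of 23 tested subunit and adaptor genes 9 were lower (39.1%), 8 were higher (34.8%) and 6 were not called, with a median of 0.03, beside 30.1% lower and 30.0% higher over all tested genes. The light intermediate chain gene DYNC1LI1 fell from 75.8 ± 5.06 to 47.4 ± 0.309 CPM and its paralog DYNC1LI2 rose from 134 ± 17 to 179 ± 14.4 CPM (SD, n = 3 each). The adaptor gene BICD2 rose to 191% of control and DCTN4 to 138%. The light chain gene DYNLT3 fell to 54% and NDE1, a dynein regulator active at mitosis, to 56.3%. DYNC1I1, the intermediate chain of neurons, rose from 0.394 ± 0.245 to 2.25 ± 0.329 CPM (SD, n = 3 each).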
